A study of Mus musculus with 4 samples.

Results

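*Lcn2*, *Lrg1* and *Slc22a17* are 3 of the 31053 genes listed for mouse hippocampal cells after global cerebral ischemia. They were selected on earlier results from these same libraries, in which counts of *Lcn2* and *Lrg1* in vascular endothelial cells (ECs) were far higher after ischemia, with *Slc22a17* added as the gene of a reported Lcn2 receptor. Their levels, their shares of cells and their co-detection are therefore descriptions and carry no test. The mice were male C57BL/6 animals, given as 12 weeks old in the labels and as younger in the methods. The 2VO mice had both common carotid arteries clamped for 50 min, whereas sham mice had the clamps released at once. Whole hippocampi were dissociated 7 days later, 1 mouse per library, and sham 1, sham 2 and 2VO 1 were analysed, while 2VO 2 was not analysed here.

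Lcn2 is a secreted lipocalin that binds iron-loaded bacterial siderophores and is made by neutrophils, epithelia and, in injured brain, by several non-neuronal cell types. Lrg1 is a secreted leucine-rich repeat glycoprotein that changes signaling of transforming growth factor beta in ECs, and both proteins belong to the acute phase response, which interleukin-6 family cytokines and NF-kappaB drive in other tissues. Slc22a17 is a membrane protein of the organic ion transporter family that has been described as a receptor for Lcn2.

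*Lcn2* (ENSMUSG00000026822) lies on chromosome 2 at 32384633 to 32388252, *Lrg1* (ENSMUSG00000037095) on chromosome 17 at 56119678 to 56122001 and *Slc22a17* (ENSMUSG00000022199) on chromosome 14 at 54906304 to 54913132, each on the minus strand and protein-coding (GRCm38, GENCODE). Because *Lcn2* and *Lrg1* moved together, the stretch from 250 to 61 bases before their RefSeq starts is shown, 5′ to 3′ on the gene's strand, with capitals marking script-found matches to GGG and CC with 5 bases of any kind between (the NF-kappaB pattern), TTCNNNGAA (STAT) or TTGCNNAA (C/EBP) on either strand. The *Lcn2* stretch (GRCm38.p6 chr2:32387800-32387989, minus strand) also overlaps a coding exon of a longer GENCODE transcript of the gene, and the *Lrg1* stretch (chr17:56122007-56122196, minus strand) lies upstream of the annotated gene.
Lcn2: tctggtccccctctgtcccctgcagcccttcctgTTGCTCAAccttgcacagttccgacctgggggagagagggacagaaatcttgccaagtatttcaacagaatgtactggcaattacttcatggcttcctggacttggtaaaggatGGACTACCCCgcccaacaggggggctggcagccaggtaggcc
Lrg1: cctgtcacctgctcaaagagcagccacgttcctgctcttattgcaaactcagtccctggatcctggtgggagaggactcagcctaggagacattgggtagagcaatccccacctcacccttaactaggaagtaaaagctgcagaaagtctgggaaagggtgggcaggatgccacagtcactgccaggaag
The *Lcn2* stretch held 1 NF-kappaB match at bases -102 to -93 and 1 C/EBP match at -216 to -209, which do not overlap, and no STAT match. The *Lrg1* stretch held none of the patterns. In the same 190 bases of 32851 mouse promoters, 35.2% held the NF-kappaB pattern, 5.51% the STAT pattern and 7.77% the C/EBP pattern, so the NF-kappaB match in particular is common.

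The 3 libraries differed in depth, with 65287386, 40459614 and 18754480 unique molecular identifiers (UMIs) in sham 1, sham 2 and 2VO 1, and 5109, 5126 and 3912 cells had at least 650 detected genes. Cells were clustered without the 3 genes, and clusters were named from fixed markers. This gave 3834 ECs, of which 1034, 1611 and 1189 came from sham 1, sham 2 and 2VO 1, with medians of 3017, 2634 and 1979 UMIs per cell. Mitochondrial genes took 3.38%, 4.09% and 5.89% of the UMIs of kept cells, so their share moved with the groups as depth did, and its part in the results was not tested. All 7 EC markers, among them *Cldn5*, *Flt1* and *Pecam1*, were found in each library's ECs. Clusters that fitted no class clearly held 462, 419 and 71 cells of sham 1, sham 2 and 2VO 1 and were left unnamed. The libraries shared 7 to 10 barcode sequences per pair among kept cells, which were treated as different cells. Levels are UMIs of a gene per 1000000 UMIs of a cell class (CPM) after TMM scaling, which lowered the 2VO value against plain totals by 0.17 on the log2 scale in ECs and by up to 0.56 in the other classes. Counts come from transcript ends and are not comparable between genes.

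*Lcn2* was almost undetected in sham ECs and abundant in ECs of the 2VO library. ECs of sham 1 held 14 *Lcn2* counts, those of sham 2 held 64 and those of 2VO 1 held 6211. These gave 3.48 CPM (95% exact Poisson interval 1.90 to 5.83), 11.2 CPM (8.63 to 14.3) and 1790 CPM (1746 to 1835), where intervals cover counting error only. The 2VO value was 243.9 times the sham mean, or 7.93 higher on the log2 scale, against an SD of 1.19 between the 2 sham libraries on that scale. At least 1 *Lcn2* UMI was found in 0.580% of sham 1 ECs (6 of 1034), 1.06% of sham 2 ECs (17 of 1611) and 14.4% of 2VO 1 ECs (171 of 1189, exact binomial 95% interval 12.4% to 16.5%). After thinning every cell to 1000 UMIs, which left out 29, 9 and 70 ECs, the shares were 0.0995%, 0.25% and 11.8%, so the 2VO share was highest although that library was the shallowest.

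*Lrg1* followed the same order of groups. It had 41, 44 and 1213 counts in ECs of sham 1, sham 2 and 2VO 1. The levels were 10.2 CPM (7.31 to 13.8), 7.70 CPM (5.60 to 10.3) and 349.6 CPM (330.2 to 369.8), and 2VO 1 was 39.1 times the sham mean. This is 5.29 on the log2 scale, against an SD of 0.285 between the sham libraries. *Lrg1* was found in 0.774%, 0.869% and 10.4% of ECs (8, 14 and 124 cells), and in 0.199%, 0.312% and 8.31% after thinning.

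**Figure D1:**
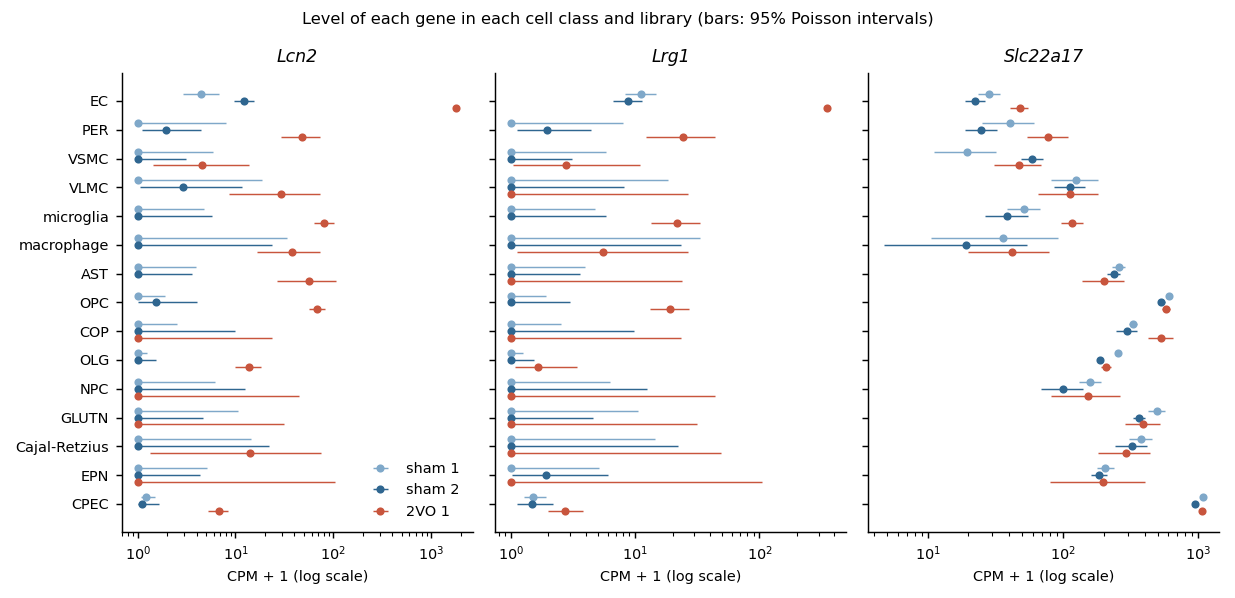
Levels of *Lcn2*, *Lrg1* and *Slc22a17* (horizontal axis, CPM + 1 on a log scale) in 15 cell classes (vertical axis) of sham 1, sham 2 and 2VO 1, with points for single libraries and bars for 95% Poisson intervals. *Lcn2* and *Lrg1* stand far to the right in 2VO ECs, at 1790 and 349.6 CPM, whereas *Slc22a17* is highest in choroid plexus epithelial cells (CPEC) and oligodendrocyte precursor cells (OPC) of all 3 libraries.

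ECs were not uniform. The EC clusters were named arterial, capillary, venous and fenestrated from fixed segment markers, and the remaining cluster, led by *Atf3*, *Fos* and *Hspa1a*, stayed unnamed and is called the stress cluster here. Of the 6211 *Lcn2* counts in 2VO ECs, 6008 lay in the 125 cells of the venous cluster, which apart from *Lcn2* and *Lrg1*, left out of clustering, was led by *Ackr1*, *Ptgs2*, *Adgrg6* and *Ch25h*. The cluster held 10 of the venous markers, and cells of the sham libraries were in it too, 54 from sham 1 and 67 from sham 2. How many cells a library has in it can be set by other genes that differ between the libraries, so its size was not compared. Which cells it takes in can be set by them too, since *Ackr1* and *Ptgs2*, which rose with *Lcn2*, were not left out of clustering. The venous cluster held 64, 98 and 153 cells of sham 1, sham 2 and 2VO 1 at a higher clustering resolution. It held 67, 98 and 151 without doublets, and 16, 55 and 120 at a lower gene minimum. Shares and levels within it are given for the main clustering only.

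Within venous ECs the share of cells with *Lcn2* was higher in 2VO 1 than in either sham library. Single cells overlapped, since some 2VO cells held no *Lcn2*. *Lcn2* was found in 5 of 54 cells of sham 1 (9.26%, 3.08% to 20.3%), 10 of 67 of sham 2 (14.9%, 7.40% to 25.7%) and 111 of 125 of 2VO 1 (88.8%, 81.9% to 93.7%). Its level was 33.5, 177.9 and 10140 CPM. The middle 2VO venous cell held 21 *Lcn2* UMIs, the middle sham cell held 0, and 79 of the 125 cells held 10 or more. A single cell held at most 7 UMIs of *Lcn2* in sham 1, 18 in sham 2 and 376 in 2VO 1, while 19 of the 2VO cells reached 100. The sham libraries differed from each other, with 13 against 54 counts, and the 2VO level was 95.9 times their mean.

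*Lrg1* was already detectable in sham venous ECs at a similar share in both sham libraries. It was found in 7 of 54 cells (5.37% to 24.9%), 10 of 67 (14.9%, 7.40% to 25.7%) and 101 of 125 (80.8%, 72.8% to 87.3%). Its level was 103.0, 131.8 and 1964 CPM, or 16.7 times the sham mean. The middle 2VO venous cell held 4 *Lrg1* UMIs and the highest held 79, against 15 in each sham library.

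Outside the venous cluster both genes were lower. In arterial ECs, *Lcn2* had no count in 195 and 291 sham cells and 18 counts in 4 of 222 2VO cells, of which 15 lay in 1 cell. In capillary ECs, it had 1, 1 and 50 counts and was found in 0.157%, 0.131% and 4.85% of 636, 762 and 577 cells. In the stress cluster, it had 0, 9 and 135 counts and was found in 11.8% of 238 2VO cells (7.96% to 16.5%). The 27 fenestrated 2VO cells, from vessels such as those of the choroid plexus, had no *Lcn2* count, which allows up to 12.8% of such cells to hold a detected UMI by the exact interval, at a median of 1693 UMIs, and does not limit the share that expresses the gene. They had 6 *Lrg1* counts in 2 cells. *Lrg1* had 5 counts in arterial, 8 in capillary and 30 in stress-cluster cells of 2VO 1, against 0 to 3 per library in the sham libraries. Thus the order venous, stress cluster, capillary, arterial held for *Lcn2* in 2VO 1 at 10140, 159.2, 43.8 and 26.2 CPM, and the last pair of values rests on 50 and 18 counts.

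**Figure D2:**
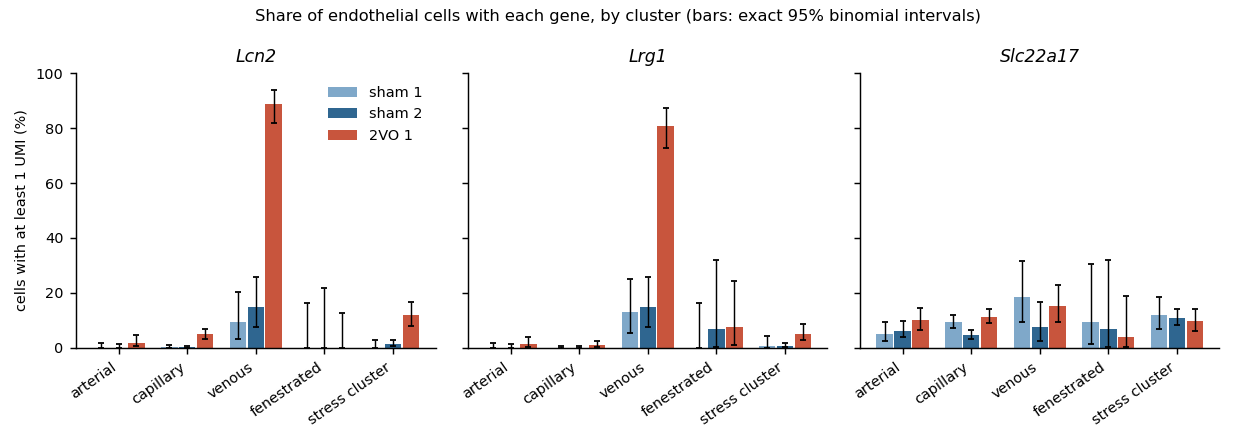
Percent of ECs with at least 1 UMI of each gene (vertical axis) in arterial, capillary, venous and fenestrated clusters and the stress cluster (horizontal axis) for sham 1, sham 2 and 2VO 1, with exact 95% binomial intervals. The 2VO bar of venous ECs reaches 88.8% for *Lcn2* and 80.8% for *Lrg1*, and *Slc22a17* is low in every cluster and library.

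*Lcn2* and *Lrg1* were often found in the same 2VO ECs, mainly those of the venous cluster. In 2VO 1, 112 of 1189 ECs held *Lcn2* and *Lrg1* (9.42%, 7.82% to 11.2%), 59 held only *Lcn2*, 12 held only *Lrg1* and 1006 held neither. The product of the single shares is 1.50%. Of *Lrg1*-positive ECs 90.3% also held *Lcn2*, against 5.54% of ECs without *Lrg1*. Of *Lcn2*-positive ECs 65.5% also held *Lrg1*, against 1.18% of ECs without *Lcn2*. In the sham libraries 2 and 4 ECs held both, or 0.193% and 0.248%. After thinning, the 2VO share was 7.24% (5.79% to 8.92%). ECs with both genes had a median of 3999 UMIs against 1880 in those with neither, so depth moved with co-detection, and its part was not tested beyond the thinning.

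Most of the overlap came from the venous cluster. There 100 of 125 2VO cells held both genes, 11 only *Lcn2*, 1 only *Lrg1* and 13 neither. *Lrg1* was found in 90.1% of *Lcn2*-positive venous cells against 7.14% of *Lcn2*-negative ones, and *Lcn2* in 99.0% of *Lrg1*-positive cells against 45.8% of *Lrg1*-negative ones. The share with both was 80.0% and the product of the single shares 71.8%, values that cannot lie far apart where each gene is found in most cells. Of sham venous ECs, 2 of 54 and 3 of 67 held both. In the stress cluster, capillary and arterial ECs of 2VO 1, most *Lcn2*-positive cells held no *Lrg1*. There 8, 3 and 1 cells held both genes, and 20, 25 and 3 held only *Lcn2*. Across the 125 venous 2VO cells the log-normalized levels of the genes had a Pearson r of 0.63, and the *Lcn2* count had one of 0.68 with the depth of the cell. The genes had an r of 0.49 in the 238 stress-cluster cells of 2VO 1, 0.28 in the 577 capillary cells and 0.19 in the 222 arterial cells, where the *Lcn2* count had one of 0.18, 0.1 and 0.14 with depth. All these cells share 1 library.

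**Figure D3:**
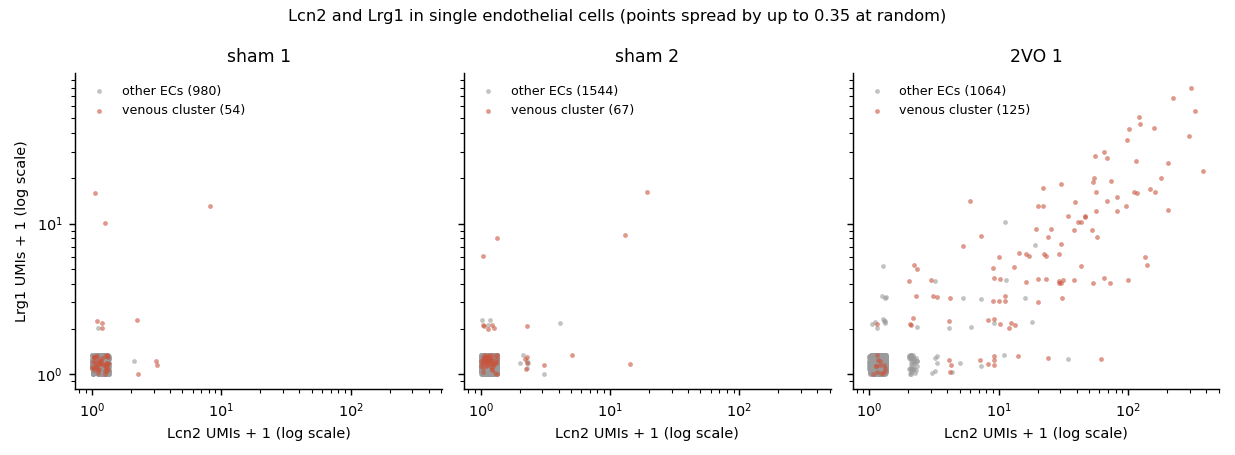
*Lcn2* UMIs (horizontal axis) against *Lrg1* UMIs (vertical axis), both + 1 on log scales with points spread by up to 0.35 at random, in single ECs of each library, with cells of the venous cluster in red and other ECs in grey. In 2VO 1 the venous cells spread up to 376 *Lcn2* and 79 *Lrg1* UMIs, while nearly all sham cells sit at 0 for both genes.

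Since neutrophils carry Lcn2, markers of other cells in ECs were counted. Of 12 neutrophil markers 8 were at 0 in 2VO ECs, among them *S100a8*, *S100a9*, *Ngp*, *Camp* and *Ly6g*, and the others summed to 10 counts over 1189 cells (3.11 CPM of the plain totals, used for all marker lists), against 3 counts in each sham library. In 2VO ECs with *Lcn2*, the whole list had 2 counts, 10 of the 12 markers were at 0, and no cell held 3 of them. The 12 venous markers summed to 10020 CPM in these cells and to 1921 in 2VO ECs without *Lcn2*. Oligodendrocyte (OLG) markers summed to 2559 and 2134 CPM in these groups. Subclusters with markers of OLGs or choroid plexus epithelial cells (CPECs) held 103 ECs. Leaving these out, an alternative chosen after seeing the data, gave log2 differences of 7.84 for *Lcn2* and 5.25 for *Lrg1*. The 1104 2VO ECs that remained held 5156 of the 6211 *Lcn2* counts and 1025 of the 1213 *Lrg1* counts. At least 3 OLG markers were found in 5 of 54, 2 of 67 and 24 of 125 venous cells of sham 1, sham 2 and 2VO 1. The part of such cells was not tested further.

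Other classes of 2VO 1 had few counts of both genes, and ECs held 95.1% of the library's *Lcn2* counts in kept cells and 93.8% of its *Lrg1* counts. OLGs had 0, 0 and 38 *Lcn2* counts in sham 1, sham 2 and 2VO 1, and 2.75% of 837 2VO cells had 1 or more at a median of 2249 UMIs. Oligodendrocyte precursor cells (OPCs) had 0, 1 and 111 counts, of which 68 lay in a single 2VO cell. Microglia had 0, 0 and 73, pericytes (PERs) 0, 2 and 20, and CPECs 5, 1 and 53. Committed oligodendrocyte precursors, neural precursor cells and glutamatergic neurons had none in any library, in 42, 32 and 15 2VO cells. *Lcn2* in 2VO 1 lay above both sham libraries in 11 of 14 classes with at least 10 cells per library and *Lrg1* in 8 of 14, under TMM, plain and DESeq2 scaling alike. Some of these orders rest on fewer than 3 counts in 2VO 1, namely those of *Lcn2* in Cajal-Retzius cells (1 count) and vascular smooth muscle cells (2 counts), and those of *Lrg1* in vascular smooth muscle cells and macrophages (1 count each) and OLGs (2 counts). Barcodes with fewer than 650 genes, which can hold free RNA or damaged cells, held 75 *Lcn2* counts in 2VO 1 and 0 in the sham libraries.

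Pooled over the other classes, markers of ECs moved with these counts. Over 13 named classes other than ECs, 92 of 2643 2VO cells (3.48%) held *Lcn2*, and 61 of the 92 held a single UMI. At least 3 of the 7 EC markers were present in 48 of the 92 cells (52.2%), but in 418 of the 2551 cells without *Lcn2* (16.4%). Cells with fewer than 3 EC markers held 54 of the 319 *Lcn2* counts of these classes. In microglia 15 of 17 *Lcn2*-positive cells had at least 3 EC markers, in OPCs 12 of 18 and in CPECs 8 of 14. In OLGs, the class with the most such cells, 7 of 23 had them. In PERs it was 2 of 8, in macrophages 2 of 5 and in vascular leptomeningeal cells 0 of 3. Among cells without *Lcn2*, the share with at least 3 EC markers was 26.07% in microglia, 14.22% in OPCs and 19.86% in CPECs. It was 12.29% in OLGs, 18.35% in PERs, 16.42% in macrophages and 31.03% in vascular leptomeningeal cells. Of these classes, only vascular leptomeningeal cells had a lower share among cells with *Lcn2*, which rests on 3 cells. The counts of *Lcn2* per *Lrg1* count were 5.12 in ECs, 3.84 in microglia, 3.70 in OPCs, 3.31 in CPECs and 2.0 in PERs (20 against 10 counts), while OLGs had 38 *Lcn2* and 2 *Lrg1* counts. Whether cells stuck to ECs or free RNA gave these counts was not tested.

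*Slc22a17* had another distribution over the named classes. Its level was highest in CPECs at 1074, 938.9 and 1053 CPM in sham 1, sham 2 and 2VO 1, and next in OPCs at 610.2, 532.3 and 576.3 CPM, and neither range met that of the class after it. Glutamatergic neurons, committed precursors and Cajal-Retzius cells followed at means of 415.6, 382.7 and 328.0 CPM, with ranges that overlapped from each to the next. Astrocytes (230.9 CPM), OLGs (215.9 CPM) and ependymal cells (194.5 CPM) overlapped likewise. Microglia, PERs, vascular smooth muscle cells, ECs and macrophages had the lowest means, from 68.1 down to 31.5 CPM, and no neighbours among these differed beyond the ranges of the 3 libraries. The gene was thus low in the ECs that held *Lcn2* and *Lrg1*, and high in epithelial and glial precursor classes.

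Pooled over each class, the 2VO level of *Slc22a17* lay between the sham libraries in CPECs, OPCs and OLGs. The log2 difference from the sham mean was 0.07 in CPECs, 0.01 in OPCs and -0.09 in OLGs, against SDs of 0.137, 0.139 and 0.312 between the sham libraries. In OLGs the levels were 254.0, 187.0 and 206.8 CPM in sham 1, sham 2 and 2VO 1. With plain totals the differences were 0.45 in CPECs, 0.34 in OPCs and 0.45 in OLGs, where the direction turned, and the 2VO level lay above both sham libraries in each. With DESeq2 size factors they were 0.09, 0.09 and -0.04. Most sham and 2VO OLGs lay in different clusters, 931 and 633 sham cells in a cluster led by *Opalin* and *Mal*, and 662 2VO cells in one led by *C4b* and *Sec14l5*. A cluster led by *Klk6* and *Anln* carried all 6 OLG markers but was left unnamed. Its 32 2VO cells had 166.4 CPM, between sham 2 at 148.5 and sham 1 at 191.8. A named OLG cluster led by *Tmem141* (difference 0.11) had only 18 2VO cells with 27 counts. Within the named OLG clusters that held 2VO cells, the 2VO level was above both sham libraries. It was 229.7, 176.7 and 246.1 CPM in sham 1, sham 2 and 2VO 1 in the *Opalin* cluster (log2 difference 0.28, sham SD 0.268) and 180.9, 180.2 and 242.0 CPM in the *C4b* and *Sec14l5* cluster (0.42, sham SD 0.004), and the other OLG clusters had differences of 0.11 and 0.43. OPCs were split as well, with 551, 258 and 62 cells in a cluster led by *Cdo1* and *C1ql1* and 47, 38 and 385 in one led by *Pcdh15*, *Pdgfra* and *Vcan*. In the former the difference was 0.11, with 2VO 1 between the sham libraries, and in the latter the level was 408.4, 479.5 and 632.1 CPM, or 0.51 higher. The CPEC clusters had 0.09, with 2VO 1 between the sham libraries, and -0.29, with 2VO 1 below both. The values pooled over a class thus differed from those within its clusters. Over all OLGs the share of cells with the gene was 85.7%, 69.8% and 48.0%, whereas after thinning to 1000 UMIs it was 19.2%, 16.6% and 23.0%. The order of the unthinned shares was that of the cells' depth, with medians of 11345, 7716 and 2249 UMIs.

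In ECs, microglia, PERs and macrophages, where *Slc22a17* was low, the 2VO level was higher than in either sham library, while in vascular smooth muscle cells it lay between them. The level in ECs was 27.6, 21.4 and 46.7 CPM (111, 122 and 162 counts), in microglia 50.4, 37.8 and 116.1 CPM (49, 29 and 106 counts) and in PERs 39.3, 23.9 and 76.5 CPM (21, 50 and 33 counts). ECs, microglia, PERs and macrophages kept this order under plain and DESeq2 scaling. The values of macrophages rest on 4, 3 and 9 counts. The barcodes with fewer than 650 genes carried the gene at 197.0, 178.2 and 257.1 CPM of their plain totals, above the level in these classes, and the part of free RNA was not tested. In 2VO ECs, 13.5% of *Lcn2*-positive cells and 10.5% of *Lcn2*-negative cells held *Slc22a17*, and 23 cells held both.

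Genes with a pattern like that of the 3 genes were then listed. Over 44 points, each a class in a library with at least 10 cells, the gene closest to *Lcn2* by Pearson correlation of log2(CPM + 5) among 15599 genes was *Lrg1* (r = 0.87), followed by *Sele* (0.82), the leukocyte adhesion molecule E-selectin, *B3gnt3* (0.725), *Tnfrsf10b* (0.702) and *Ch25h* (0.699), which makes 25-hydroxycholesterol. Closest to *Lrg1* were *Lcn2* (0.87), *Sele* (0.849), *Gm5127* (0.811) and *Scgb3a1* (0.795). For *Slc22a17* they were *Cntn1* (0.825), a neural adhesion molecule, *Enpp5* (0.806), *Miga1* (0.796) and *Elovl4* (0.792), a fatty acid elongase. The points share libraries and classes, so these values are descriptions.

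Within the 1189 ECs of 2VO 1 the nearest genes had higher levels in venous ECs than in capillary or arterial ECs. Among 6990 genes, *Lrg1* was closest to *Lcn2* (r = 0.844), followed by *Ackr1* (0.742), the atypical chemokine receptor of venules, *Ifitm1* (0.615), *Ch25h* (0.606), *Vcam1* and *Vwf* (0.555 each) and *Ptgs2* (0.551), which makes prostaglandins. For *Lrg1* they were *Lcn2*, *Ackr1* (0.761), *Vcam1* (0.602), *Ifitm1* (0.601), *Ch25h* (0.588), *Ptgs2* (0.57) and *Il1r1* (0.568). Levels of some of these genes in venous ECs of 2VO 1 lay far from both sham libraries. *Ackr1* had 36.1, 29.6 and 1046 CPM in venous ECs of sham 1, sham 2 and 2VO 1, *Ptgs2* 72.1, 161.4 and 804.7 and *Sele* 2.58, 3.29 and 457.2. *Vwf* had 1175, 1588 and 2470 CPM, and *Nr2f2*, a transcription factor of venous identity chosen here after its values were seen, had 221.5, 204.2 and 185.6 CPM.

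Pathway genes around the 3 members were tested in ECs with edgeR's quasi-likelihood test on library sums, and called where the adjusted p was below 0.05 with more than a 1.5-fold change. Of 12104 genes tested, 148 were higher in 2VO 1 (1.22%) and 25 lower (0.207%), and 1.43% were called in either direction. The 9 lists, chosen with earlier results of these data known, are described by their counts. The filter on low counts kept 739 of the tested genes through 2VO 1 alone, and these had a median log2 difference of 1.66, against -0.04 for the 11365 that also reached the minimum in a sham library, of which 123 were called higher (1.08%). With 1 residual degree of freedom, the 2VO library was assumed to vary like the sham libraries. In counts simulated at an assumed dispersion, the fit called 22% of 2-fold rises and 10% of 2-fold falls. For 4-fold rises and falls it called 86% and 70%. The changed genes were drawn only from those above a minimum expected count, so these shares do not cover listed genes with few or no sham counts. A listed gene without a call is thus not shown to be unchanged.

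Of 30 genes listed as acute phase and secreted response proteins 10 were tested and 7 of these were called higher. Of the 10, 6 passed the filter through 2VO 1 alone, among them the called genes *Serpina3n*, *C4b* and *Timp1*, so the count over the tested genes is no measure of the list. *Serpina3n*, a secreted protease inhibitor of injured brain, had 0, 0 and 99 counts, and *C4b*, a complement component, had 1, 6 and 216. The 4 genes that reached the minimum in a sham library were all called. Of these, *Cp*, the ferroxidase ceruloplasmin, rose by 1.61 ± 0.235 (SE) on the log2 scale, *Ch25h* by 3.26 ± 0.323 and *Ifitm1* by 3.05 ± 0.248. *Ch25h* is an enzyme and *Ifitm1* an interferon-induced membrane protein, neither of them a secreted acute phase protein, and both are among the leading genes of the venous cluster. The fourth, *Apod*, a lipocalin, rose by 2.74 ± 0.204 (edgeR, adjusted p = 0.00216) and is also 1 of the 2 tested members of the lipocalin list. The other, the prostaglandin D synthase *Ptgds*, rose by 1.91 ± 0.286 (edgeR, adjusted p = 0.0336). OLGs and other classes also express *Apod*, *Ptgds*, *C4b* and *Trf*, and OLG markers summed to 1010, 213.2 and 2236 CPM in ECs of sham 1, sham 2 and 2VO 1. Without the subclusters that hold markers of other classes the sums were 344.5, 154.4 and 1137, and all 15 listed genes that rose were still called.

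Of genes of Lcn2 partners and iron handling 3 of 11 tested rose. They were *Fth1*, the ferritin heavy chain that stores iron (1.48 ± 0.173; edgeR, adjusted p = 0.0142), *Trf*, transferrin (2.72 ± 0.418; edgeR, adjusted p = 0.0343), and *Cp*. *Fth1* had 2399, 2583 and 6779 CPM in ECs, so its 2VO level lay far from both sham libraries. The other 8 tested genes were not called. *Lrp2*, an endocytic receptor that also binds Lcn2, and *Mmp9*, whose product pairs with Lcn2, were not among the genes tested.

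Of 27 tested genes of NF-kappaB and its upstream receptors 3 were called higher. *Il1r1*, the interleukin-1 receptor, had 29.3, 30.8 and 85.9 CPM (edgeR, adjusted p = 0.0114). The cytokines *Il1a* and *Il1b* had 1, 0 and 24 and 0, 0 and 27 counts in ECs and passed the filter through 2VO 1 alone, so 1 of the 23 genes that reached the minimum in a sham library was called. Markers of microglia, which make both cytokines, summed to 44.3, 37.5 and 179.8 CPM in ECs, with none of 6 at 0, and their part was not tested. Of 23 tested genes of the IL-6 family and STAT3, 2 rose, with a median of 0.30, namely *Fosl2* (1.24 ± 0.194; edgeR, adjusted p = 0.0359) and *Sbno2* (1.46 ± 0.203; edgeR, adjusted p = 0.0244), a target of interleukin-10 and STAT3 signaling. With DESeq2 instead of edgeR, *Fosl2*, *Il1a*, *Sbno2*, *Timp1* and *Trf* were not called, and after thinning to 1000 UMIs 13 of the 15 were called, while *Il1b* and *Timp1* were not tested. *Nfkbiz* and *Il17ra*, of the NF-kappaB list and chosen after their values were seen, were not called here but were called higher in each alternative fit apart from the DESeq2 Wald test.

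None of the 23 tested genes of LRG1 and TGF-beta signaling was called, and their median was -0.12. The most abundant, the BMP target genes *Id3* and *Id1* and the co-receptor *Eng*, had log2 differences of -0.59 ± 0.185, -0.69 ± 0.210 and -0.20 ± 0.182 (edgeR, adjusted p = 0.152, 0.145 and 0.564). None of the 7 leucine-rich repeat genes was called, where *Bgn* had 0.73 ± 0.306. None of the 6 SLC22 transporters was called, and *Slc22a8*, the organic anion transporter of brain ECs, had 403.0, 369.8 and 222.5 CPM (edgeR, adjusted p = 0.100). None of the 14 dissociation and stress genes was called, and *Fos* had 682.8, 3554 and 2391 CPM, with 2VO 1 between the sham libraries. That count depended on the fit, as shown by genes named after their values were seen. After thinning to 1000 UMIs *Egr1* (1.56; edgeR, adjusted p = 0.000377), *Fosb* (1.91; adjusted p = 0.0134) and *Hspa1b* (1.22; adjusted p = 0.0348) were called higher, against 1.41, 1.42 and 1.18 without thinning (edgeR, adjusted p = 0.132, 0.396 and 0.197). With no filter on low counts, these genes, *Hspa1a* and *Hsp90aa1* were called higher, and *Id1*, *Id3* and *Slc22a8* lower.

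**Figure D4:**
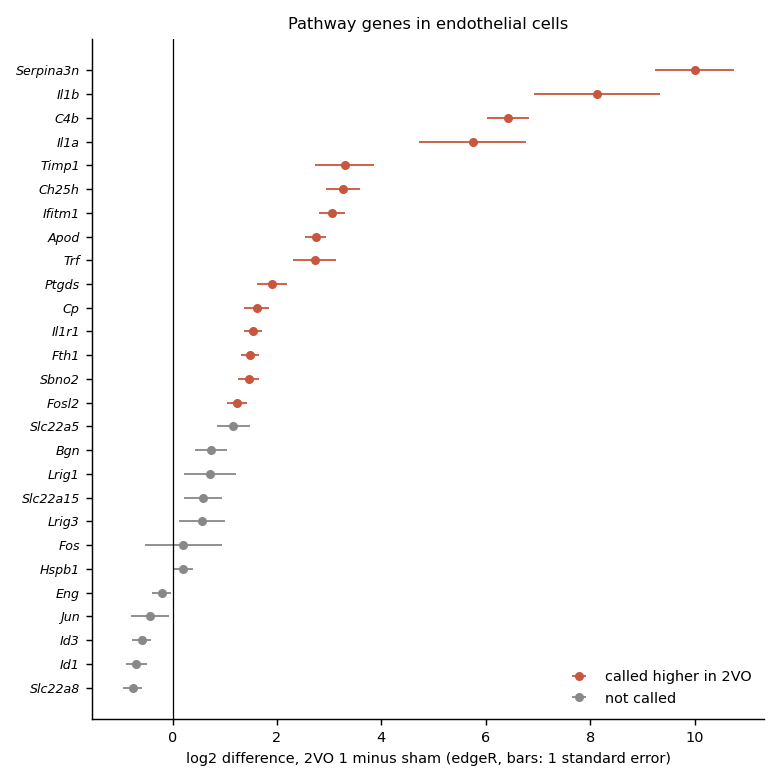
Log2 differences (horizontal axis, edgeR, 2VO 1 minus sham) with 1 standard error for the listed pathway genes named here (vertical axis), red where called higher and grey where not called. Values of *Serpina3n* and *Il1b* rest on 0 sham counts and depend on the fit's prior count, and *Id1*, *Id3* and *Slc22a8* lie left of 0 without a call.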

How the data were processed

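Single-cell RNA libraries of 3 hippocampi, 1 mouse each, were analysed. The deposited files hold UMI counts per gene and barcode, which the authors made with Cell Ranger on mm10 (Seurat 3.2.2 is also named in the submitters' processing notes). Barcodes with 650 or more genes were kept and clustered together with scanpy 1.11.5 and leidenalg 0.10.2 (Python 3.11.15; 2000 variable genes, 30 components, 15 neighbours, resolution 1), without *Lcn2*, *Lrg1* and *Slc22a17*. Clusters were named from listed markers by a rule set after seeing the clusters, so class names are rebuilt. Scrublet marked 102, 132 and 117 cells in sham 1, sham 2 and 2VO 1, which stayed in the values given. In 2VO 1 its own limit marked 1 cell, so the mean limit of the sham libraries was used. Sums of counts over the ECs of each library were tested with edgeR 4.0.16 (R 4.3.3, quasi-likelihood, Benjamini-Hochberg adjustment), which was tested on simulated data first. No other class was tested. DESeq2 1.42.0 was an alternative, as were cell filters, doublet removal, clustering resolution, scaling, thinning and leaving out a sham library.

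The 3 genes and the gene lists were chosen with earlier results of these data known. Listed genes are named where called, otherwise the 3 with most EC counts in a list, and like genes are those with the 8 highest correlations, among genes with at least 50 counts or, within ECs, found in at least 5% of cells. 1 of the like genes within ECs is not reported here. Total UMIs per library ran from 18754480 to 65287386, and intervals cover counting error only. 2VO 2 was not analysed here. RefSeq promoters were found for 3 of 3 genes.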

Additional observations from a re-analysis of the deposited data

Results flagged for a closer look

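*Lcn2* and *Lrg1* were counted at 69.9 and 19.6 CPM of plain totals in 2VO 1 barcodes with fewer than 650 genes, which no comparison uses, against 0 and 0 in sham 1 and 0 and 0.693 in sham 2.

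For *Slc22a17* both sham libraries lay on the same side of 2VO 1 in 8 of 14 classes, in directions that differ between classes. The difference between classes was not tested. Of 3 libraries that do not differ, a given one is more often outermost than in the middle. The number of classes is thus no result about the gene, and the share over all genes was not computed. The log2 difference from the sham mean was 1.40 in microglia (SD between the sham libraries 0.294), 1.27 in PERs (0.509) and 0.93 in ECs (0.26). In committed oligodendrocyte precursors it was 0.75 (0.118) and in macrophages 0.62 (0.673). It was -0.31 in astrocytes (0.086), -0.27 in Cajal-Retzius cells (0.164) and -0.07 in vascular leptomeningeal cells (0.098). With plain totals 9 of 14 classes lay above both sham libraries and 1 below, against 5 and 3 with TMM and 7 and 2 with DESeq2 size factors.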

How the results depend on the processing

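The log2 differences of *Lcn2* and *Lrg1* in ECs kept their direction under every alternative run, and leaving out 1 sham library moved them between 7.32 and 9.01 and between 5.10 and 5.50. For *Slc22a17* in OLGs the value of -0.09 turned to 0.45 with plain totals and 0.06 after thinning to 1000 UMIs, and leaving out 1 sham library gave -0.30 to 0.15, the latter without sham 1. The share of 2VO ECs with *Lcn2* and *Lrg1* went from 9.42% to 7.04% at a 200-gene minimum and 7.24% after thinning. Shares and levels within the venous cluster were not compared between clusterings. The 173 genes called in ECs became 431 at the 200-gene minimum, 357 without doublets, 1378 with no filter on low counts, 264 with DESeq2 size factors and 82 with the DESeq2 Wald test, and the cause was not tested. They became 266 after thinning and 239 without EC subclusters that hold markers of other classes; these fits, and the values without those subclusters, were chosen after seeing the data. Leaving out a sham library was not run for the calls, since no residual degrees of freedom remain. No paired analysis was possible because only 1 2VO library was analysed. With that single library, mouse and treatment cannot be told apart, and its lower depth limits what low genes can show.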
